A study of Mus musculus with 12 samples.

Results

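Antioxidant and NRF2 target genes, a list of 40 genes picked by name, were examined in fetal mouse liver, and 39 of the 40 had a row among the 30743 gene symbols of the deposited table. The libraries were polyA-selected RNA of entire livers of male C57BL/6J fetuses at 15 ± 0.5 dpc, 6 carried by dams on the control diet (13.5 kcal% fat) and 6 by dams on the high-fat diet (HFD, 60 kcal% fat), each diet given to the dams for 12 to 14 weeks. The study, on how maternal HFD and obesity affect blood formation in the fetal liver, used these libraries to find genes that differ between the diets. The values used here are the authors' averages of each gene over all 12 livers of both diets, deposited as log2 CPM (counts per 1000000 counted reads). These averages have no error of their own, single livers and the difference between the diets were not analysed here, and the depth of each library is unknown from the average. Everything below is therefore a description of levels, without a test, and in a whole organ more cells of a type and more RNA per cell cannot be told apart.

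Cells make superoxide and hydrogen peroxide as by-products of respiration. Superoxide dismutases turn superoxide into hydrogen peroxide, which catalase breaks down directly. Most glutathione peroxidases and peroxiredoxins reduce hydrogen peroxide with electrons passed on from NADPH through glutathione or thioredoxin. NRF2, the product of Nfe2l2, is a transcription factor that KEAP1 marks for degradation until oxidants or electrophiles modify KEAP1. NRF2 then pairs with a small MAF protein and binds the antioxidant response element in genes for glutathione synthesis, quinone reduction and heme breakdown, while BACH1 occupies the same elements as a repressor. The fetal liver is a blood-forming organ, and red cell precursors handle large amounts of iron, heme and oxygen.

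The list was dominated by a few abundant mRNAs. Of the 39 members, 35 lay above 1 CPM (89.7%), 27 above 10 CPM (69.2%) and 16 above 100 CPM (41.0%). Of the 19652 rows above the lowest value of the table, 51.8% lay above 1 CPM, 28.2% above 10 CPM and 8.30% above 100 CPM. Of the 10171 rows above 1 CPM, 16.1% lay above 100 CPM. The median average level of the members was 62.3 CPM, against 1.15 CPM for all rows above the lowest value. After division by the summed exon length of each gene, the median was 15.4 CPM per kb, against 0.469 CPM per kb for the 15887 genes above the lowest value that could be matched to the annotation. Together the members held 1.31% of the summed CPM of the table, and Gpx1 alone held 33.9% of the members' sum. The 5 highest in CPM, Gpx1, Ucp2, Prdx2, Cat and Glrx5, held 68.3% of it. Per kb of summed exon length the order was led by Gpx1, Prdx3, Cat, Prdx2 and Hmox1.

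**Figure D1:**
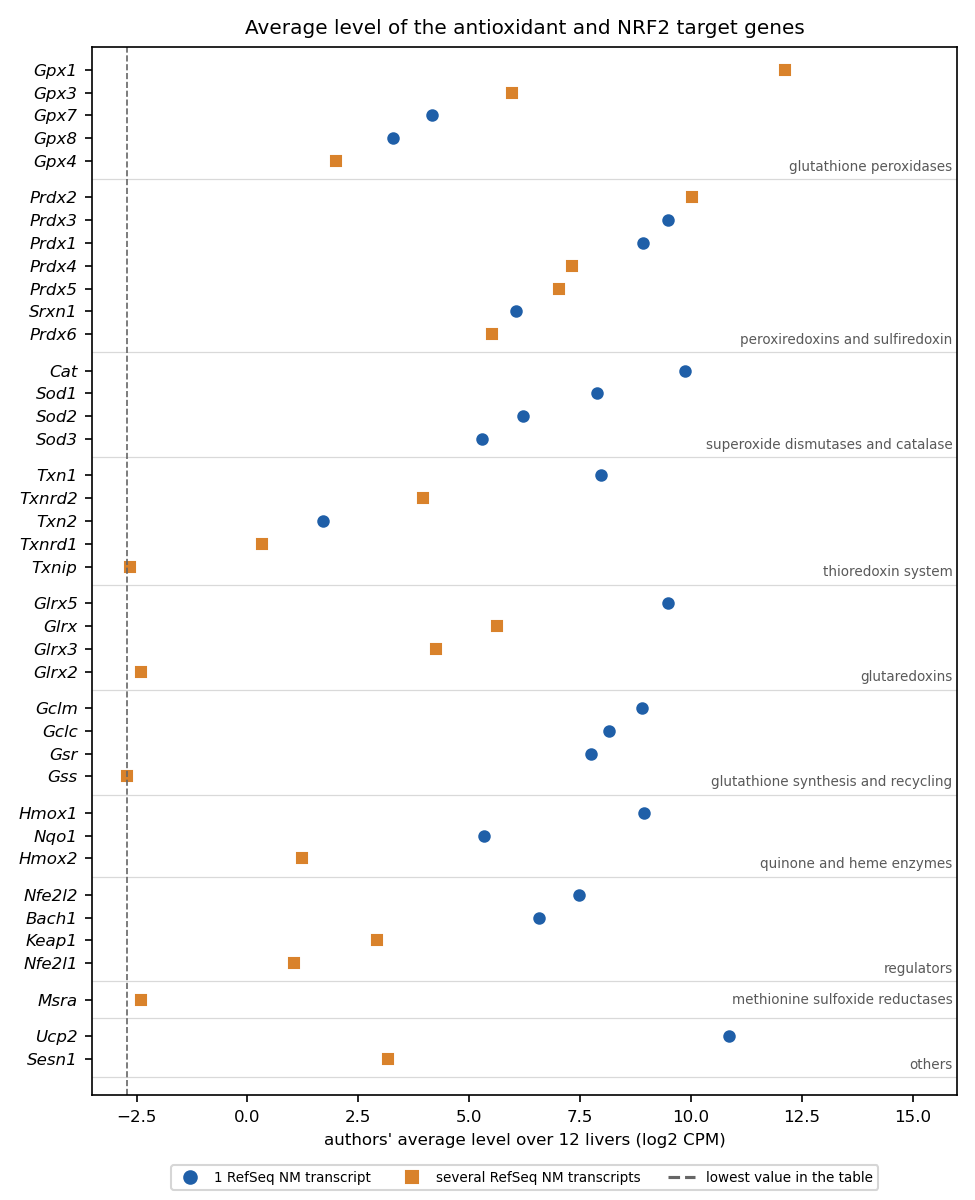
Authors' average level over 12 livers (log2 CPM, horizontal axis) of the 39 members with a row, grouped by role. Circles are genes with 1 RefSeq NM transcript and squares genes with several, and the dashed line is the lowest value of the table (-2.71). Gpx1 stands highest at 12.13, and the 4 members near the dashed line are all squares.

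The level of a gene in this table moved with the number of transcripts annotated for it, and this bears on every comparison between members. The 20 members with a single curated RefSeq transcript (NM accession) had a median of 225.8 CPM and none lay under 1 CPM. The 19 members with several had a median of 8.95 CPM, and 4 of them (Txnip, Glrx2, Gss and Msra) lay under 1 CPM, so near the lowest value of 0.152 CPM that no order among the 4 is given. Over all genes the difference ran the same way but was much smaller in the median. It was 0.819 CPM for the 11286 protein-coding genes with a single NM transcript and 0.534 CPM for the 7077 with several. Above 100 CPM lay 10.9% and 3.75% of them, and above 1 CPM 48.5% and 40.6%. The lowest value was shared by 2759 of the 11286 and by 1311 of the 7077, a share that was not higher with several. Genes that every cell uses were also found at the bottom of the table. Eif4a1, a translation initiation factor, and Rps25, a ribosomal protein (both picked after their values were seen), were listed at the lowest value, and 10 of 76 cytosolic ribosomal protein genes lay under 1 CPM. A low value of a member is therefore given as its listing in the table and not as absence of the mRNA. Near-identical stretches of another gene were found for 8 of the 40 genes, and exons of 9 overlap a gene on the opposite strand. The part that any of these had in a single level was not tested.

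**Figure D2:**
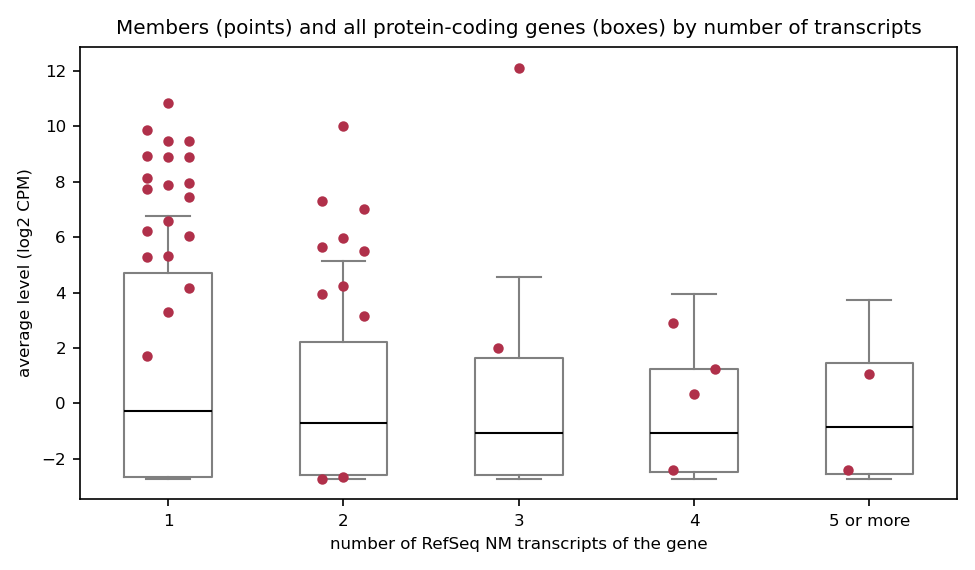
Average level (log2 CPM, vertical axis) by the number of RefSeq NM transcripts of a gene. Boxes show the median and quartiles of all 18363 matched protein-coding genes with whiskers at the 10th and 90th percentiles, and points are the members. The members' median is 7.82 with 1 transcript, 5.51 with 2 and 7.07 with 3 (Gpx1 and Gpx4 only). It is 0.78 with 4 and -0.67 with 5 or more (Nfe2l1 and Msra only). Over all genes the medians in the same order are -0.29, -0.72, -1.06, -1.07 and -0.86.

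Markers placed the libraries as liver with active erythropoiesis. Of 8 hepatocyte markers, 6 lay above 100 CPM, led by Alb at 63310 CPM. Hnf4a was listed at the lowest value and Serpina1b at 0.305 CPM. Of the 7 erythroid markers with a row, 6 lay above 100 CPM, and Alas2 was listed at 0.704 CPM. The median was 231 CPM over 4 granulocyte markers, of which S100a9 was listed at 0.165 CPM. Over 4 hematopoietic stem and progenitor markers the median was 1.80 CPM. Over the 4 macrophage markers with a row it was 0.378 CPM, and Vcam1 was the highest of these at 290.1 CPM. Of markers of tissue that a dissection could carry along, the 4 for the acinar pancreas lay between 0.284 and 13.7 CPM. The median of all rows above the lowest value was 1.15 CPM. Among the 4 intestinal markers, Fabp1, which hepatocytes also express, reached 251.5 CPM. Fabp2 had 15.4 CPM, Vil1 4.04 CPM and Cdx2 0.709 CPM. An average over 12 livers cannot show whether single livers carried such tissue.

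Among the genes of the glutathione peroxidase family, Gpx1 stood far above the others. Gpx1, the cytosolic enzyme for hydrogen peroxide, maps to chromosome 9 (108338903 to 108340343 in GRCm38, the build of mm10) and averaged 4470 CPM, rank 16 of all rows, or 3102 CPM per kb. It was the member with the highest level on either scale, although RefSeq gives it several NM transcripts. Gpx3, the secreted plasma form, followed at 34.4 CPM per kb. Gpx7 and Gpx8, which act in the endoplasmic reticulum, had 13.9 and 9.29 CPM per kb. Gpx4, which repairs oxidised phospholipids, was last with 2.33 CPM per kb (4.01 CPM). Its coding transcript matched the pseudogene Gpx4-ps2 at 99.7% identity over 733 bases, so that reads can fit both places. RefSeq also gives Gpx4 3 NM transcripts. The level of Gpx4 is uncertain, and the part of either in it was not tested.

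Several of these enzymes are selenoproteins, in which a TGA codon inside the reading frame is read as selenocysteine rather than as a stop. The longest coding transcript in GENCODE M21 was searched for every gene of the list, and 6 of the 40 held such a codon, which stands at the catalytic site of these enzymes. They are shown because the codon sets them apart from their relatives on the list, with 12 bases before the codon, up to 12 after it, and the codon in capitals.

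Gpx1 (codon 47 of 201): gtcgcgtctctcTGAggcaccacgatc

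Gpx3 (codon 73 of 226): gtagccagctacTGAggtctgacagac

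Gpx4 (codon 129 of 253): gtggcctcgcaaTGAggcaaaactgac

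Txnrd1 (codon 612 of 613): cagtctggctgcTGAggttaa

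Txnrd2 (codon 526 of 527): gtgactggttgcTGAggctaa

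Msrb1 (codon 95 of 116): caatcaagattcTGAatatttagcagc

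In Gpx1, Gpx3 and Gpx4 the codon lies inside the protein and the next codon is ggc or ggt. In both thioredoxin reductases it is the second last codon of the frame, after tgc, a cysteine codon. Gpx7 and Gpx8 held no in-frame TGA. The levels of these genes spanned a wide range, from 0.178 CPM per kb for Txnrd1 and 3.55 CPM per kb for Txnrd2 to 3102 CPM per kb for Gpx1. Msrb1, a methionine sulfoxide reductase, is the member without a row. Its older symbol Sepx1 had a row at 3.19 CPM, which was not counted among the members because the list was matched on the symbols as written.

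Peroxiredoxins reduce peroxides through a reactive cysteine. All 6 lay above 10 CPM, against 28.2% of all rows above the lowest value. Prdx3, the mitochondrial form, had 481 CPM per kb of exon (710.7 CPM). Prdx2, the form most abundant in red cells, had 342 CPM per kb (1042 CPM). The order of these neighbours turned on the scale, with Prdx2 above Prdx3 in CPM and also per kb of the longest transcript (647 against 481 CPM per kb). Prdx1, also cytosolic, had 158 CPM per kb, and Prdx4 of the endoplasmic reticulum 75.4 CPM per kb. Prdx5 had 60.5 CPM per kb, and Prdx6, which also acts on phospholipids, 9.49 CPM per kb. Processed pseudogenes matched Prdx1 at 98.3% and Prdx2 at 96.3% identity, each over 597 bases. Exons of Trmt112 on the opposite strand cover 19.1% of the exon bases of Prdx5, and the library kit does not mark the strand. Srxn1, which restores overoxidised peroxiredoxins, averaged 66.7 CPM or 23.7 CPM per kb.

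Catalase was the most abundant of the enzymes that act on superoxide and hydrogen peroxide without glutathione or thioredoxin. Cat, on chromosome 2 from 103453849 to 103485160, averaged 937 CPM, or 359 CPM per kb, and catalase is the peroxisomal and red cell enzyme that splits hydrogen peroxide. Sod1, the cytosolic copper and zinc dismutase, averaged 59.3 CPM per kb (235.6 CPM). Its copper chaperone gene Ccs had 44.5 CPM per kb. A processed pseudogene matched Sod1 at 97.85% identity over 465 bases. The secreted Sod3 had 10.4 CPM per kb and the mitochondrial Sod2 7.43 CPM per kb, an order that turned per kb of the longest transcript and in CPM, where Sod2 had 74.3 and Sod3 39.0. Stretches of the Sod2 transcript matched 19 other genes at 95% identity or more over at least 100 bases. The longest had 193 bases, so these were short parts of the transcript and not copies of it.

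Thioredoxin itself was abundant, and the rest of its system was listed far lower. Txn1, the cytosolic thioredoxin, averaged 237 CPM per kb (249.5 CPM) and Txn2, the mitochondrial one, 0.773 CPM per kb (3.25 CPM). The reductases that recharge them had 3.55 CPM per kb for the mitochondrial Txnrd2 and 0.178 CPM per kb for the cytosolic Txnrd1. RefSeq gives Txnrd1 several NM transcripts and Txn2 a single one, and the part of transcript number in either level was not tested. A processed pseudogene matched Txn1 at 95.8% identity over 309 bases. Txnip, which binds thioredoxin and limits glucose uptake, was listed at 0.159 CPM, and exons of an antisense gene, Gm15441, cover 19.4% of its exon bases. Of the glutaredoxins, Glrx5, which serves iron-sulfur cluster assembly in mitochondria, stood highest with 194 CPM per kb (715 CPM, rank 141). Glrx had 9.05 CPM per kb and Glrx3 3.78 CPM per kb, with a processed pseudogene of Glrx3 at 99.1% identity over 964 bases, and Glrx2 was listed at 0.190 CPM.

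Of the 4 genes that make and recycle glutathione, 3 lay above 100 CPM, and 1 was listed at the lowest value. Gclc, the catalytic subunit of the rate-limiting ligase, had 75.3 CPM per kb (283 CPM), Gclm, its modifier subunit, 75.8 CPM per kb (477 CPM), and Gsr, the reductase that returns oxidised glutathione, 78.6 CPM per kb (216 CPM). Per kb of the longest coding sequence, however, Gclm had 580 CPM per kb against 148 for Gclc and 144 for Gsr. With no error for any of them, no order among the 3 can be given. Gss, the synthase that completes the tripeptide, was the member at the lowest value of the table, on chromosome 2 from 155563181 to 155592810. RefSeq gives Gss more than 1 NM transcript, and exons of Acss2 on the opposite strand cover 6.68% of its exon bases.

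**Figure D3:**
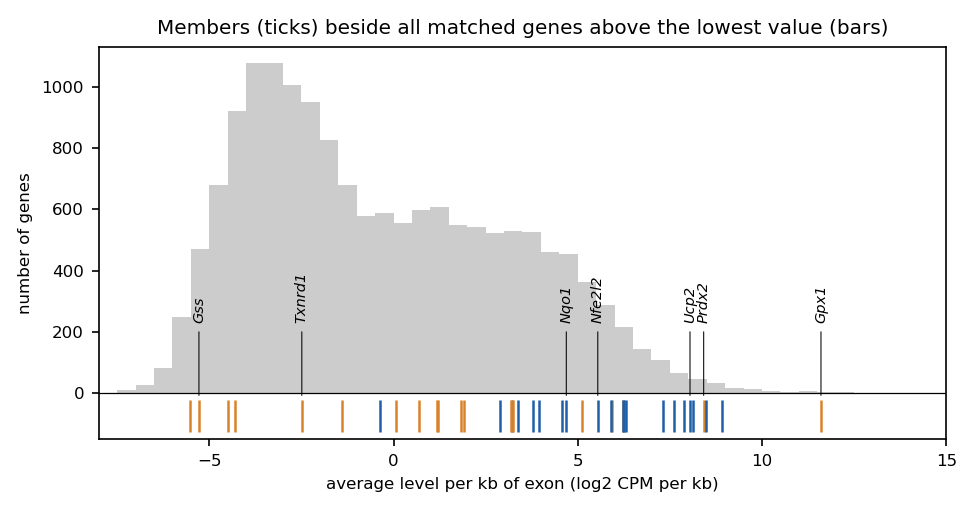
Average level per kb of exon (log2 CPM per kb, horizontal axis) for all 15887 matched genes above the lowest value (grey bars, number of genes) and for the 39 members (ticks under the bars, blue with 1 NM transcript and orange with several). The members' median of 15.4 CPM per kb lies to the right of the median of 0.469 CPM per kb over all these genes. Of the 39 members, 7 are named, and Gpx1 is the highest member.

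Hmox1, the inducible heme oxygenase and a target of both NRF2 and BACH1, averaged 281 CPM per kb (491 CPM, rank 226). It lies on chromosome 8 from 75093621 to 75100589. Nqo1, a quinone reductase often used to read out NRF2 activity, had 25.8 CPM per kb. Hmox2, the constitutive heme oxygenase, was listed at 1.06 CPM per kb, and 40.2% of its exon bases are shared with Cdip1 on the opposite strand. Blvrb, a biliverdin reductase outside the list that is abundant in red cells, had 438 CPM per kb.

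The regulators of the pathway were listed at widely different levels. Nfe2l2, on chromosome 2 from 75675513 to 75704641, averaged 177 CPM or 46.6 CPM per kb, and Bach1 15.4 CPM per kb (6.57 on the log2 CPM scale). Keap1 followed with 1.61 CPM per kb and Nfe2l1, a relative of NRF2 that controls proteasome genes, with 0.380 CPM per kb, and RefSeq gives several NM transcripts to each of these. Of the partners outside the list, Mafk had 52.9 CPM per kb, Mafg 17.5 CPM per kb and Maff 9.18 CPM per kb, while Nfe2, the erythroid relative of Nfe2l2, had 191 CPM per kb. Cul3, the scaffold of the ligase that KEAP1 serves, was listed at 0.0980 CPM per kb (0.4775 CPM), and RefSeq gives it 2 NM transcripts.

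Ucp2, which encodes a carrier of the mitochondrial inner membrane, averaged 1846 CPM (rank 48 of all rows) or 264 CPM per kb, the level of rank 6 among the members on the latter scale. Sesn1, a p53 target that lowers mTORC1 signalling, had 2.25 CPM per kb (8.95 CPM). The methionine sulfoxide reductase Msra, which repairs oxidised methionine, was listed at 0.190 CPM, and RefSeq gives it 6 NM transcripts.

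All 43 further genes of the pathway had a row, Selenop under its older symbol Sepp1, and their median was 15.96 CPM. Above 1 CPM lay 35 of them (81.4%) and above 100 CPM 10 (23.3%). Of all rows above the lowest value, 51.8% lay above 1 CPM and 8.30% above 100 CPM. The highest per length were Mt2, a metallothionein, with 2992 CPM per kb, Fth1, the ferritin heavy chain, with 923 CPM per kb, and Blvrb. The 4 enzymes examined of the pentose phosphate pathway, which makes NADPH, had 225 CPM per kb for Taldo1, 126 CPM per kb for Tkt, 53.8 CPM per kb for G6pdx and 38.0 CPM per kb for Pgd. Me1, another source of NADPH, was listed at the lowest value. Slc7a11, the cystine transporter, had 0.444 CPM per kb.

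RefSeq promoter sequences (GRCm38.p6, 250 bases before to 50 after each start) were matched for 34 of the 40 genes, with 50 promoters in all. They were searched on both strands for the core of the antioxidant response element, TGACNNNGC. It was found in 7 of the 50 promoters, 14.0%, against 12.4% of all 32851 promoters and 14.9% of the promoters of genes above 1 CPM. The full consensus TGACTCAGC, which the core contains, was found in 1 promoter, that of Prdx1, and in 0.454% of all promoters. The matches are shown with 10 bases on either side, on the strand of the gene, to let the middle bases be compared. Capitals mark the match, which reads as the reverse complement of the core where it lies on the opposite strand.

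Nfe2l2, chr2:75704885-75704913, gene strand minus: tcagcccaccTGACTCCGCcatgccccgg

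Srxn1, chr2:152105542-152105570, gene strand plus: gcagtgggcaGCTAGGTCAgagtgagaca

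Gclm, chr3:122245413-122245441, gene strand plus: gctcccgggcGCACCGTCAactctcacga

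Prdx1, chr4:116685456-116685484, gene strand plus: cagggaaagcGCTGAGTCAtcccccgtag

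Ucp2, chr7:100493282-100493310, gene strand plus: ccctggctccGCCTCGTCAcgccacgccc

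Txnrd1, chr10:82859104-82859132, gene strand plus: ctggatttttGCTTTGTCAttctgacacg

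Sod1, chr16:90220696-90220724, gene strand plus: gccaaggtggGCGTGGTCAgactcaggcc

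The match lay on the strand of the gene in Nfe2l2 and on the opposite strand in the other 6. Counted from the start, its first base lay at -133 in Prdx1, -134 in Gclm and -240 in Nfe2l2. In Srxn1 the first base lay at 29, after the start. A looser form of the core, TGACNNNG, also matched the Srxn1 promoter before the start, as TGACTCAG at -103 and -46 on the opposite strand. This looser form was found in 42.0% of the members' promoters and 41.0% of all promoters. The 7 genes ranged from 0.178 CPM per kb for Txnrd1 to 264 CPM per kb for Ucp2, around the members' median of 15.4 CPM per kb. Whether a match goes with the level of a gene was not tested. No match was found in the windows of Nqo1 and Gpx1, and Prdx6, Gclc, Sod3, Gsr, Hmox1 and Msra were not matched. The upstream part of the Prdx1 promoter is given in full, since it held the full consensus (capitals).

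Prdx1, chr4:116685349-116685598, gene strand plus: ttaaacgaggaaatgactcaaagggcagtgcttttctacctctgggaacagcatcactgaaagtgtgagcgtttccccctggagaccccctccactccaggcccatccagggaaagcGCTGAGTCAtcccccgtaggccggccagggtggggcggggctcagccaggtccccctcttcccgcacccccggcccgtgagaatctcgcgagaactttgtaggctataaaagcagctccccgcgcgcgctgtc

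**Figure D4:**
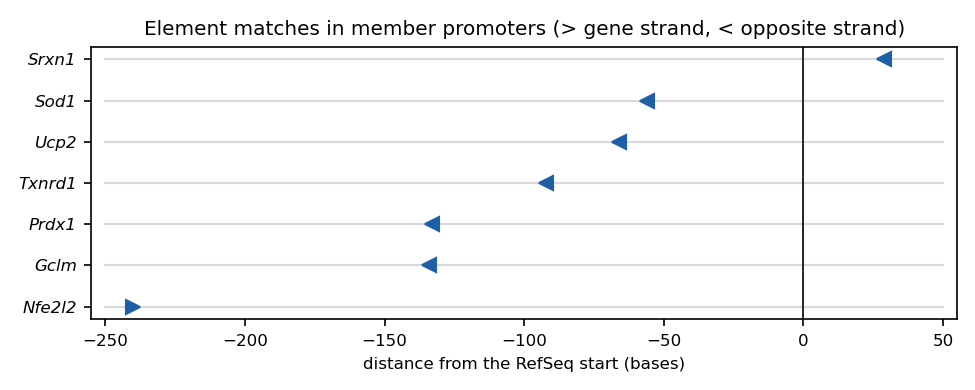
Distance of the first base of each element match from the RefSeq start (bases, horizontal axis) in the 7 member promoters with a match. Arrowheads to the right lie on the gene's strand and arrowheads to the left on the opposite strand. The matches of Prdx1 and Gclm lie at -133 and -134, and that of Srxn1 alone lies after the start.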

How the data were processed

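PolyA-selected RNA of 12 fetal livers, 6 per maternal diet, was prepared with an unstranded kit and sequenced. Per the submitters' processing notes and the study's methods, the authors used cutadapt 1.2.1, Subread 1.3.6-p1 on mm10, biomaRt and edgeR. The read counter and the normalization are not given in the sources used here. The authors deposited 1 table, whose average log2 CPM per gene over both diets was used as their mean. Its other columns hold the authors' own comparison of the diets (log2 fold changes, p-values, adjusted p-values and signed fold changes with a common and a tagwise dispersion) and were not used, so the planned count test between the diets was not run. The number of columns of single livers was 0.

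CPM is 2 to the power of the deposited log2 value, and over all rows it summed to 1005170, above 1000000. Whether a constant is part of each value is not known from the sources used here, so values near the lowest are uncertain. The lowest value (0.152 CPM) was shared by 11091 rows. Exon lengths, positions and overlaps came from GENCODE M21 (GRCm38, the build of mm10), which matched 21063 symbols, and transcript numbers and promoters from RefSeq GRCm38.p6, both later than the authors' annotation. Near-identical copies were sought with BLAST 2.17.0 (at least 95% identity over 100 bases). The motif search was checked on simulated sequences. All 40 genes were to be named. Members and lists were chosen with earlier results of these data known. Python 3.11.15, numpy 2.4.6, pandas 2.3.3 and matplotlib 3.10.9 were used.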

Additional observations from a re-analysis of the deposited data

How the results depend on the processing

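The median level of the members was 62.3 CPM, and 225.8 CPM with only the 20 members that have a single NM transcript, a choice made after seeing the data. With rows above 1 CPM as the background, the share of genes above 100 CPM was 16.1% in place of 8.30%, and the median percentile of the members was 76.2 in place of 87.7. The median level per length was 15.4 CPM per kb of exon and 91.9 CPM per kb of the longest coding sequence, which is shorter by construction. The stricter motif TGACTCAGC was in 2.0% of the members' promoters and the looser TGACNNNG in 42.0%, against 0.454% and 41.0% of all promoters. With the longest transcript as length, the levels per kb of 13 of 39 members moved by over 1.5 times, and with the longest coding sequence those of all 39. With rows above 1 CPM as the background, the percentiles of 20 of the 39 moved by over 10 points. Of 69 pairs of members within a role, 65 kept their order without the division by length. The second average column, wider promoter windows, count tests and the leaving out of livers were not run. No paired analysis was possible because single livers were not analysed here. No level has an error, so differences between genes of similar level cannot be judged, and depth is unknown.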
